A study of Mus musculus with 162 samples.

Results

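Trigeminal ganglia were taken 5 days into treatment of the cheek skin of mice with MC903, a vitamin D3 analog that produces an atopic dermatitis-like rash, or with its vehicle, ethanol. The 6 libraries examined here are all those of the 162 in the study that the labels give as trigeminal ganglion, wild-type, no injection and day 5: 3 from mice treated with MC903 and 3 from mice treated with ethanol. Both groups were adult male C57BL/6 mice that carried no engineered allele and differed in the agent alone, 20 µL of 0.2 mM MC903 in ethanol or 20 µL of ethanol, put on the shaved cheek once per day. The ganglion lay on the treated side, and the agent was put on the skin and not on the ganglion. The labels do not say that the 3 libraries of a group came from separate animals, so the p-values measure only the spread between these libraries. Libraries from the ganglion at day 1 (6 hours after the first treatment), day 2 and day 8, and from the treated skin at day 5, serve here only for comparison.

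The trigeminal ganglion holds the cell bodies of the sensory neurons of the face, wrapped by satellite glia and sending out axons ensheathed by Schwann cells. Its neurons fall into subsets that respond to touch, temperature, pain or itch. An itch subset often called NP3 makes the peptides Nppb and somatostatin and carries Il31ra and Osmr, which pair to form the receptor of the type 2 cytokine IL-31 and signal through Jak1 and STAT3. Sensory neurons also alter what they make when their target tissue is inflamed, Bdnf being a well-known case of a secreted factor that rises in such neurons.

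The 6 libraries held 18308417 to 26516831 counts on genes each, and 24300 genes with at least 10 counts in total were tested. Levels are cpm, which scale a gene to the whole of its library, after TMM normalisation, which compares a gene between libraries and not 1 gene with another, and ± is the SD over 3 libraries. A gene passed the test at an adjusted p below 0.1 (edgeR's quasi-likelihood test with Benjamini-Hochberg adjustment), the study's threshold in this tissue. With no further term in the fit, 2 genes passed, 0.00823% of those tested, and both were higher with MC903. Deviations from the group means correlated at 0.168 to 0.373 in same-numbered MC903 and ethanol libraries and at -0.329 to 0.203 in the others. The labels do not say what a number shares. On that basis a fit that takes the replicate number as a block stands beside the first, and its calls rest on that pairing. That fit passed 54 genes, 18 higher (0.0741% of those tested) and 36 lower (0.148%). All 3 MC903 libraries lay above all 3 ethanol libraries for 965 genes, or 3.97%, and below them for 1219, or 5.02%.

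The libraries were checked against markers of ganglion cells and of neighbouring tissue. The 14 sensory neuron markers, which include the axon filament genes Nefl, Nefm, Nefh and Prph, summed to between 8692 and 12660 cpm in the 6 libraries, and markers of satellite glia and myelinating Schwann cells were likewise high in all of them. None of the neuron markers passed in edgeR with or without the block. All MC903 libraries lay above all ethanol libraries for 4 of the 14, against 3.97% of all genes tested. The median log2 fold change of the 14 was 0.26 against 0.00 over all genes tested. Markers of the pituitary gland, which lies on the skull base between both ganglia, did not keep 1 level. Of 8 such genes 7 were tested, and their sum was 52.8, 10940 and 5980 cpm in ethanol replicates 1, 2 and 3 and 57.3, 273 and 612 cpm in MC903 replicates 1, 2 and 3. Ethanol replicates 2 and 3 thus stood apart from the other 4 libraries, and growth hormone (Gh) alone took 1% and 0.537% of their counts, against at most 0.0512% elsewhere. Markers of oligodendrocytes and astrocytes, the glia of the brain, summed to 244, 1085 and 605 cpm with ethanol and to 106, 706 and 874 cpm with MC903, so that replicate 1 was the lowest of both groups. Neutrophil markers were highest in replicate 3 of both groups, at 46 and 75.1 cpm against 12.8 to 18.1 cpm in the other 4 libraries, and keratinocyte markers in ethanol replicate 1, at 176 cpm against 39.2 to 65.4 cpm. None of the 7 keratinocyte or 11 neutrophil markers passed in either fit.

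**Figure D1:**
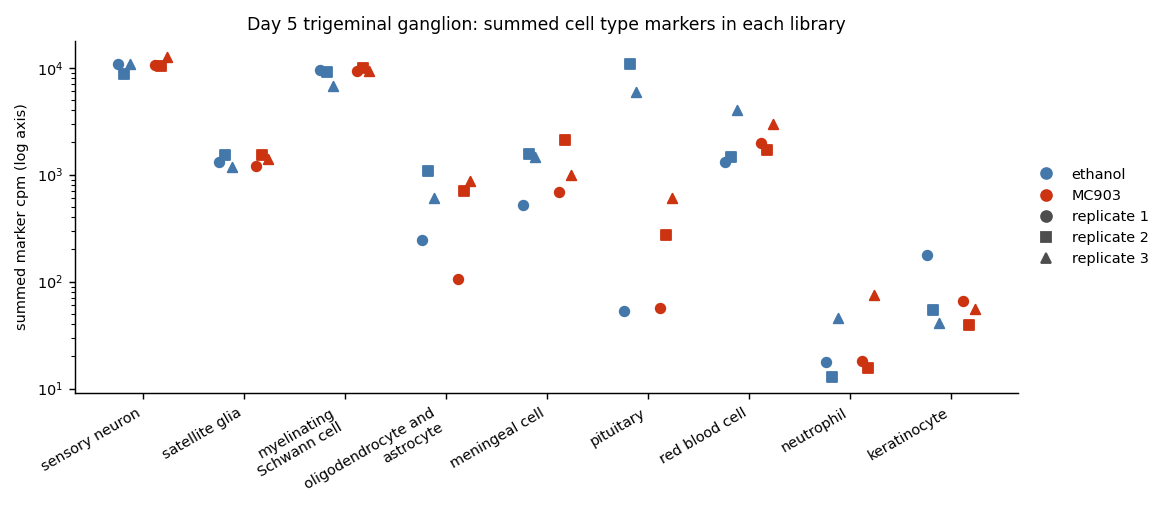
Summed cpm of the markers of 9 cell types in each of the 6 libraries, on a log axis, with ethanol in blue, MC903 in red and 1 symbol for each replicate number. Sensory neuron markers lay between 8692 and 12660 cpm throughout, while pituitary markers reached 10940 and 5980 cpm in ethanol replicates 2 and 3 and stayed at or under 612 cpm in the other 4 libraries.

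The genes that passed as higher with MC903 are given by their roles, secreted factors first. Nptx2, on chromosome 5 from 144545902 to 144557478 (GRCm38), encodes a neuronal pentraxin that gathers glutamate receptors at synapses. It measured 42.7, 37 and 37.1 cpm in the ethanol libraries and 87.6, 115.7 and 120.1 cpm in the MC903 libraries. The groups were far apart, at 38.9 ± 3.21 against 108 ± 17.6 cpm, a log2 fold change of 1.47 ± 0.17 (SE) with an adjusted p of 0.0944 by edgeR without the block and 0.00547 with it. Alkal2, on chromosome 12 from 30884322 to 30893854, encodes a ligand of the receptor tyrosine kinases Alk and Ltk. It measured 1.84, 0.724 and 1 cpm with ethanol and 9.04, 8.45 and 8.91 cpm with MC903, so it was scarce in each ethanol library and at nearly 1 level in all 3 MC903 libraries. It differed by 2.88 ± 0.35 on the log2 scale, with adjusted p of 0.0944 in edgeR without the block and 0.00319 with it. Its receptors did not pass: Alk was at 1.42 cpm with ethanol and 1.63 cpm with MC903, and Ltk at 0.413 and 0.287 cpm. Both calls without the block were lost when ethanol replicate 2 or 3 or MC903 replicate 2 or 3 was left out, with adjusted p from 0.45 to 1, and that of Alkal2 also without MC903 replicate 1, at 0.137.

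Bdnf, on chromosome 2 from 109674700 to 109727007, encodes brain-derived neurotrophic factor, which nociceptive neurons release onto spinal neurons. It measured 36.2, 21 and 21.4 cpm with ethanol and 119.3, 74.7 and 71.2 cpm with MC903. Replicate 1 was the highest of each group, and each MC903 library was 3.3 to 3.56 times the ethanol library of its number. The log2 fold change was 1.75 ± 0.27 without the block, with an adjusted p of 0.265 in edgeR, and 1.76 ± 0.15 with it, with an adjusted p of 0.00177, the smallest of all genes. Vgf, on chromosome 5 from 137026392 to 137033351, encodes a granin-like precursor of several neuropeptides. It measured 31.2, 34.5 and 29 cpm with ethanol and 54.9, 90.2 and 134 cpm with MC903, so the MC903 libraries spread widely but all lay above the ethanol libraries. Its block-adjusted p in edgeR was 0.028, with a log2 fold change of 1.47 ± 0.23. Fst, which encodes the activin-binding protein follistatin, measured 8.04, 2.54 and 2.19 cpm with ethanol and 14.7, 7.34 and 6.95 cpm with MC903. It is the 1 higher gene of the 18 whose groups overlapped, since ethanol replicate 1 exceeded MC903 replicates 2 and 3, and its block-adjusted p was 0.0919.

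Among the list of 22 neurotrophic and synapse-organising factors and their receptors, 20 were tested. Of these, 4 passed with the block as higher (Bdnf, Nptx2, Alkal2 and Fst) and none as lower, against 0.0741% and 0.148% of all genes tested. All MC903 libraries lay above all ethanol libraries for 6 of the 20, against 3.97% of all genes tested. The lists used here were drawn up with earlier results of these data known, so such counts partly restate that choice. The median log2 fold change of the list was 0.41 against 0.00 over all genes tested. Nptx1, the relative of Nptx2, was at 206, 158 and 187 cpm with ethanol and at 217, 311 and 375 cpm with MC903, and did not pass (block-adjusted p 0.473, edgeR). Receptors of these factors differed less in value: Ntrk2, the receptor of Bdnf, was at 281 and 286 cpm, and Ret, which serves the Gdnf family, at 536 and 705 cpm with ethanol and MC903, and neither passed. Of the 19 neuropeptides and granins, Vgf passed as higher and chromogranin B (Chgb) as lower with the block. Chgb measured 90.2, 205 and 148 cpm with ethanol and 50.6, 76.3 and 97.8 cpm with MC903, and ethanol replicate 1, with few pituitary markers, lay within the range of the MC903 libraries. Calca, which encodes the peptide CGRP, had 394, 480 and 553 cpm with ethanol and 764, 554 and 765 cpm with MC903, and Adcyap1, encoding PACAP, had 30.2, 20.8 and 24.9 against 45.5, 43.1 and 37.1 cpm. Neither of these neuropeptide genes passed, with block-adjusted p of 0.583 and 0.257 in edgeR.

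**Figure D2:**
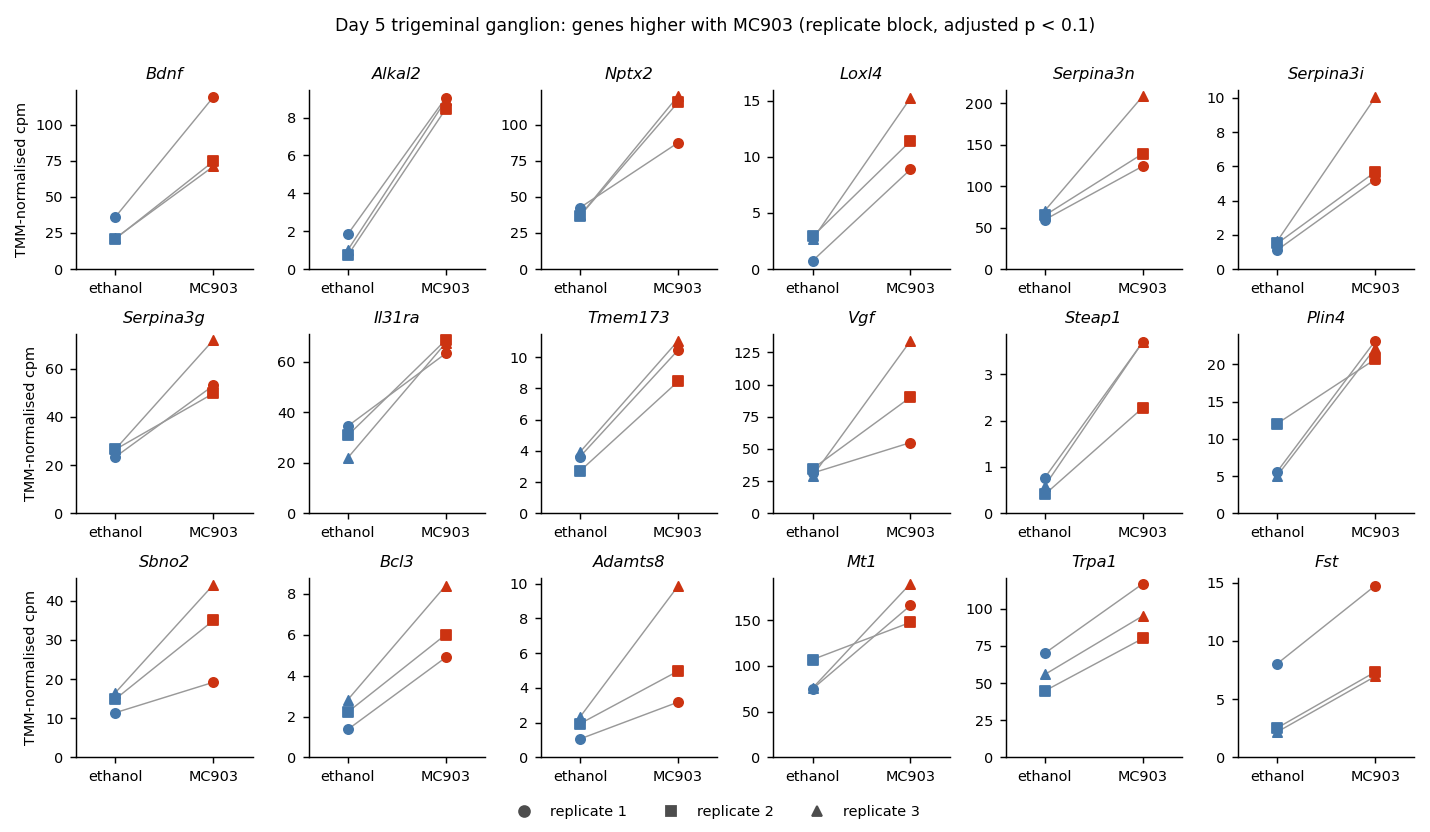
TMM-normalised cpm in each library of the 18 genes that passed as higher with MC903 in the fit with the replicate block, in the order of their p-values, with lines joining the MC903 and ethanol libraries of the same number. Each line rises in all 18 panels, and the groups overlap in that of Fst alone.

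The itch receptor Il31ra, on chromosome 13 from 112519898 to 112594360, binds IL-31 together with Osmr. It measured 34.5, 30.8 and 22 cpm with ethanol and 63.3, 68.6 and 67.5 cpm with MC903. The MC903 libraries were close to each other and about level, at 66.5 ± 2.8 against 29.1 ± 6.46 cpm. The log2 fold change was 1.19 ± 0.19 without the block, with an adjusted p of 0.265 in edgeR, and 1.22 ± 0.18 with it, with an adjusted p of 0.0193. Trpa1, an irritant-gated cation channel that itch and pain neurons share, measured 70.2, 44.8 and 55.9 cpm with ethanol and 116.9, 80.1 and 95.3 cpm with MC903. It was 1.67 to 1.79 times higher in each pair, and passed with the block at an adjusted p of 0.073 in edgeR. These are the 2 of the 9 listed NP3 genes that passed, both of them higher, against the 0.0741% of all genes given above. This list too was drawn up with earlier results of these data known.

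The other 7 NP3 genes did not pass in edgeR, with or without the block. Cysltr2, a leukotriene receptor, had 3.51, 3.21 and 1.82 cpm with ethanol and 9.1, 5.47 and 8.53 cpm with MC903. Nppb, the itch transmitter natriuretic peptide B, had 2.91, 1.81 and 2.34 cpm with ethanol and 10.8, 3.81 and 5.12 cpm with MC903. Osmr, the partner of Il31ra, had 28.2, 31.6 and 24.8 cpm with ethanol and 36.2, 47.4 and 48.3 cpm with MC903. The block-adjusted p of these 3 genes were 0.177, 0.168 and 0.477 in edgeR. In them, as in Il31ra and Trpa1, all MC903 libraries lay above all ethanol libraries. That made 5 of the 9, against 3.97% of all genes tested, and the choice of the list limits this count too. In DESeq2 without the block Cysltr2 passed, at an adjusted p of 0.0399, beside Il31ra. Sst, which encodes somatostatin, was at 3.12 ± 0.52 cpm with ethanol and 3.21 ± 1.26 cpm with MC903. Htr1f, a serotonin receptor of the same neurons, was at 8.33 ± 0.84 and 8.27 ± 2.3 cpm, and Jak1 at 436 ± 24.1 and 447 ± 28.5 cpm. Nts, which encodes neurotensin, was at 6.55 ± 2.54 and 4.17 ± 1.76 cpm. The 9 log2 fold changes of the list ran from -0.66 to 1.47, with a median of 0.64.

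Genes of other sensory subsets were measured beside them. None of the 16 genes of other itch and nociceptor subsets passed in either edgeR fit, 3 had an unadjusted p below 0.05, and 1, Mrgprb5, passed in DESeq2. Mrgprb5, a Mas-related receptor, had 10, 9.33 and 11.6 cpm with ethanol and 4.21, 5.3 and 5.87 cpm with MC903, with a block-adjusted p of 0.226 in edgeR and an adjusted p of 0.0503 in DESeq2 without the block. Trpv1, the capsaicin receptor, had 76.3, 51.3 and 54.3 cpm with ethanol and 102, 82.4 and 98.5 cpm with MC903, with a block-adjusted p of 0.25. Of 15 TRP, Piezo and acid-sensing channels only Trpa1 passed, and of 12 voltage-gated sodium channels and 24 potassium channels none did in either fit or in DESeq2 (1 and 0 at an unadjusted p below 0.05), with median log2 fold changes of 0.02 and 0.04. Scn10a, the sodium channel Nav1.8 of nociceptors, was at 598 ± 41.5 cpm with ethanol and 824 ± 177 cpm with MC903. In bulk tissue, fewer cells of a type and less RNA per cell cannot be told apart, nor can their opposites.

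Genes that act in or answer to gp130 and JAK-STAT signalling formed another listed group, of which 33 were tested. With the block, Il31ra, Serpina3n and Bcl3 passed as higher and none as lower, against 0.0741% and 0.148% of all genes tested. All MC903 libraries lay above all ethanol libraries for 7 of the 33, against 3.97% of all genes tested. The median log2 fold change was 0.17. This list was also drawn up with earlier results of these data known, so such counts partly restate that choice. Serpina3n, an acute phase inhibitor of serine proteases, measured 59.5, 64.7 and 70.5 cpm with ethanol and 124.04, 139.1 and 208.5 cpm with MC903. Its log2 fold change with the block was 1.24 ± 0.15 and the adjusted p 0.00813 in edgeR. The neighbouring Serpina3i measured 1.11, 1.49 and 1.63 cpm with ethanol and 5.23, 5.68 and 10 cpm with MC903, and Serpina3g 23.4, 26.5 and 26.6 against 53, 49.7 and 71.9 cpm. All 3 genes lie on chromosome 12 between 104236245 and 104414329 and are close relatives, so counting could have split reads among them. Their block-adjusted p were 0.0108 for Serpina3i and 0.0181 for Serpina3g in edgeR. Bcl3, a nuclear partner of NF-kB, measured 1.37, 2.22 and 2.82 cpm with ethanol and 4.89, 6.01 and 8.41 cpm with MC903. Sbno2, a gene induced by IL-10 and STAT3 that was on no list, had 11.4, 14.9 and 16.5 cpm with ethanol and 19.2, 34.9 and 44 cpm with MC903. Both passed with the block at an adjusted p of 0.0455.

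Apart from Il31ra, the cytokines, receptors, kinases, STATs and feedback inhibitors of the list did not pass in edgeR, with or without the block. Socs3, the feedback inhibitor of gp130 and a target of STAT3, had 12, 4.71 and 6.28 cpm with ethanol and 18.8, 16.8 and 15.5 cpm with MC903, and missed the threshold with the block at an adjusted p of 0.111 (edgeR). Stat3 had 301, 220 and 244 cpm with ethanol and 299, 331 and 402 cpm with MC903, and the shared receptor chain Il6st had 460 cpm with ethanol and 509 cpm with MC903. The cytokines Il6 and Lif stayed under 1 cpm in the means of both groups, at 0.0275 and 0.762 cpm with ethanol and 0.152 and 0.299 cpm with MC903.

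The windows upstream of these genes were read to show them, for the STAT motif TTCNNNGAA, the AP-1 motif TGANTCA and the cAMP response element TGACGTCA, on both strands. RefSeq promoter windows of GRCm38.p6 were at hand for 12 of the 18 higher genes, with 20 windows of 250 bases before a start. The STAT motif was present in 6 of these 20 windows (30%), from 5 genes, against 7.02% of all 32851 windows. By gene it was 5 of 12 (41.7%), against 8.13% of all genes with windows. The windows are not independent, since Bdnf and Sbno2 have several starts each and Serpina3g and Serpina3i are relatives. The motifs were chosen with earlier results of these data known, and enrichment was not tested. Of the 39 windows of genes that passed as lower, 3 (7.69%) held it. The AP-1 motif was present in 1 of the 20 windows, the second start of Bdnf, against 6.75% of all, and the cAMP response element in none, against 1.55%. Of the 39 windows of lower genes, 2 (5.13%) held the AP-1 motif and 3 (7.69%) the cAMP response element. None of the 20 windows held more than 1 match. The first start of each of the 5 genes with a STAT match is shown, and then that of Alkal2, which had no match and passed in both fits, each 5′ to 3′ towards the start with the STAT match in capitals. The windows of Serpina3g and Serpina3i lie before related genes and share the same letters at it. A match is a run of letters, and no binding was measured here.
Il31ra, chr13:112580663-112580912, minus strand: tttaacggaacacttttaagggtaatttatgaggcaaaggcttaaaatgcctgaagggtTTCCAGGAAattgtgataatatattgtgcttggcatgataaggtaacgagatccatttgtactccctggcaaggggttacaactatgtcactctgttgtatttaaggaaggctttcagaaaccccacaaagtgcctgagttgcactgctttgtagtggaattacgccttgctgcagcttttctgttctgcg
Serpina3g, chr12:104235897-104236146, plus strand: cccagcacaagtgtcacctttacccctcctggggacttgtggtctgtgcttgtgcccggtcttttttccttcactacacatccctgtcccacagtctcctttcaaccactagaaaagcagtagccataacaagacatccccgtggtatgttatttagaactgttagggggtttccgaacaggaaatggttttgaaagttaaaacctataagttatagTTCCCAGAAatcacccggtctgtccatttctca
Serpina3i, chr12:104262872-104263121, plus strand: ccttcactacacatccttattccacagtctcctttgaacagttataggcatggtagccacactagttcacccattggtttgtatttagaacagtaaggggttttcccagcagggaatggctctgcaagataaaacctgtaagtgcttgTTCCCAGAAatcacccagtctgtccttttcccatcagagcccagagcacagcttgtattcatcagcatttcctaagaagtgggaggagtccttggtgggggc
Sbno2, chr10:80102703-80102952, minus strand: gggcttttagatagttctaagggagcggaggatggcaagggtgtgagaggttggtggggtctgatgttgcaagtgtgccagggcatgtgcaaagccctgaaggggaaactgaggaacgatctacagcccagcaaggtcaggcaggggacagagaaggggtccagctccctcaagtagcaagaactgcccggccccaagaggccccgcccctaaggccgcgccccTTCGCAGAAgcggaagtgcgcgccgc
Bdnf, chr2:109674450-109674699, plus strand: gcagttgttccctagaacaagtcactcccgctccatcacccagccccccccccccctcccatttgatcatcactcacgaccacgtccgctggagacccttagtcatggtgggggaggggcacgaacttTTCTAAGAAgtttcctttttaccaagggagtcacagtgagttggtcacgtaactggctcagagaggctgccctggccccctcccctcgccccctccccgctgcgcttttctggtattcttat
Alkal2, chr12:30884074-30884323, plus strand: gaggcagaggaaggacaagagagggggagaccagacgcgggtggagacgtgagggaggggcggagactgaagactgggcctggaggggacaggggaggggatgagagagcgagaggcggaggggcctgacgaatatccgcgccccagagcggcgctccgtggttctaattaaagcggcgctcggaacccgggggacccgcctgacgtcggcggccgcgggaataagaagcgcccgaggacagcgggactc

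Further genes passed as higher that belong to other roles. Loxl4, a lysyl oxidase-like enzyme that cross-links collagen, measured 0.727, 2.9 and 2.64 cpm with ethanol and 8.87, 11.4 and 15.2 cpm with MC903. Its log2 fold change with the block was 2.62 ± 0.31 and the adjusted p 0.00595 in edgeR. It was the only gene to pass among 41 of the extracellular matrix and its enzymes, whose median log2 fold change was 0.06. Tmem173, which encodes the DNA-response adaptor STING, measured 3.64, 2.72 and 3.94 cpm with ethanol and 10.5, 8.45 and 11.1 cpm with MC903, with a block-adjusted p of 0.024. None of the 35 interferon-induced genes passed in either edgeR fit or in DESeq2, 3 had an unadjusted p below 0.05, and their median log2 fold change was -0.10. Steap1, a metalloreductase, went from between 0.407 and 0.77 cpm with ethanol to between 2.28 and 3.7 cpm with MC903, and Adamts8, a secreted protease, from between 1.07 and 2.34 to between 3.19 and 9.86 cpm.

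Of 23 genes known to respond to glucocorticoids 2 passed with the block, both higher, against 0.0741% of all genes tested. They were Mt1, a metallothionein, with 74.9, 107 and 75.7 cpm with ethanol and 166, 148 and 190 cpm with MC903, and Plin4, a lipid droplet coat protein, with 5.6, 12 and 5.05 cpm with ethanol and 23.2, 20.7 and 22.2 cpm with MC903. Their block-adjusted p were 0.0705 and 0.0383 in edgeR. Other members of that list, among them Fkbp5 and Per1, did not pass, and its median log2 fold change was 0.11. It too was drawn up with earlier results of these data known. The list of 19 clock genes had no call in either edgeR fit or in DESeq2, 2 genes at an unadjusted p below 0.05 and a median of -0.04.

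Several groups that a noxious or inflamed target tissue could alter had no call in either edgeR fit or in DESeq2. They were the 23 activity-induced genes, the 22 nerve injury and regeneration genes, the 34 tested chemokines, cytokines and receptors, the 10 genes of MHC class II presentation, the 22 of cholesterol and fatty acid synthesis and the 17 of heat shock and protein folding. In that order, 4, 3, 2, 0, 0 and 0 of them had an unadjusted p below 0.05. Vgf, Bdnf and Nptx2, described above, are also known to be induced by neuronal activity but stand on other lists. Fos, an early marker of neuronal activity, had a mean of 7.33 cpm with ethanol and 5.13 cpm with MC903, and Arc 1.08 and 0.821 cpm. The activity-induced genes had a median of -0.18 on the log2 scale. All MC903 libraries lay above all ethanol libraries for 2 of them, Gadd45g and Fosl2, and below them for 1. Over all genes tested the shares were 3.97% and 5.02%. Ccl2, a chemokine of monocytes, had 0.984, 0.996 and 0.52 cpm with ethanol and 2.39, 1.58 and 2.46 cpm with MC903, and did not pass (block-adjusted p 0.776, edgeR). MC903 acts on the vitamin D receptor, and of 8 genes of the receptor and its targets none passed in edgeR or DESeq2 or had an unadjusted p below 0.05. Vdr itself had 3.94, 3.89 and 3.08 cpm with ethanol and 2.1, 3.07 and 3 cpm with MC903, and its target Cyp24a1, which breaks down vitamin D, had a mean of 21.7 cpm with ethanol and 11 cpm with MC903. Of all 384 genes on the 19 lists, 378 were tested, and with the block 12 passed as higher and 1 as lower. Over all genes tested the shares were 0.0741% and 0.148%, but the lists were drawn up with earlier results of these data known.

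**Figure D3:**
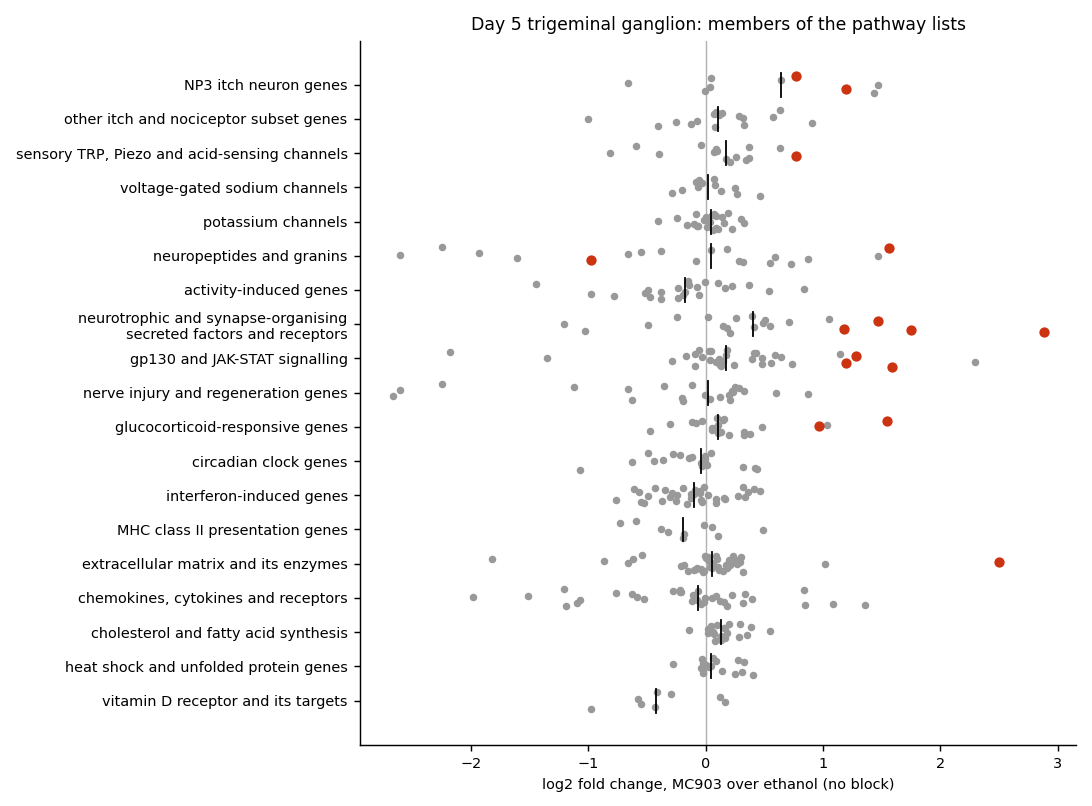
Log2 fold change of MC903 over ethanol, without the block, for each tested member of the 19 lists, with members past the threshold in the fit with the replicate block in red, the others in grey and the median of each list as a black bar. The calls lie in 7 lists, all of them above 0 except that of Chgb at -0.98.

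The 36 genes that passed as lower with MC903 included hormones, receptors and transcription factors of the anterior pituitary, and most moved with the pituitary markers. Of the 36, 3 are themselves among those markers, Cga and Prl included. Cga, the shared subunit of the glycoprotein hormones, measured 0.299, 138 and 59.2 cpm with ethanol and 0.114, 1.74 and 4.04 cpm with MC903. Gnrhr, the receptor of gonadotropin-releasing hormone, measured 0.0856, 13.8 and 4.09 cpm with ethanol and 0, 0.29 and 0 cpm with MC903. Prl, prolactin, measured 2.18, 1179 and 559 cpm with ethanol and 2.22, 35.4 and 58.9 cpm with MC903. In each of these 3 genes ethanol replicates 2 and 3 were high, and ethanol replicate 1 was at or under the highest MC903 library. Lhx3 and Neurod4, transcription factors of the developing pituitary, followed the same order, with block log2 fold changes of -4.53 and -4.60. In Six6, another such factor, with a block log2 fold change of -4.83, ethanol replicate 1 was likewise the lowest of its group but lay above the MC903 libraries, at 0.428 cpm against at most 0.29 cpm. Dlk1, Igsf1 and Asb4, which also passed, had 1.07, 69.5 and 38.1, 1.33, 65.2 and 27, and 0.642, 12.7 and 6.09 cpm with ethanol, and at most 4.37, 4.33 and 0.666 cpm with MC903.

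Of the 36 lower genes, 28 had levels in both ethanol replicate 2 and ethanol replicate 3 at least 2 times that in ethanol replicate 1, as did 1 of the 18 higher genes, Loxl4. The share of such genes among all those tested was not counted, so how unusual 28 of 36 is was not tested. Of the 36 lower genes, 9 had all MC903 libraries below all ethanol libraries, and of the 18 higher genes, 17 had all above. Among all genes tested, 5.02% had all below and 3.97% all above. Both sets were picked by a test on these same libraries, so their separation partly restates that choice. The log2 of the summed pituitary markers was also put into the fit without the block, an alternative chosen after the data were seen. No gene passed as lower in that fit even without the term, so the fold changes are what can be compared. Cga is itself among the summed markers, so its move from -5.01 to -0.17 with the term was in part set in advance. With the term the log2 fold change moved from -4.20 to -1.06 for Dlk1 and from -5.76 to -1.92 for Gnrhr, which are not among the markers. It moved from -0.98 to -0.51 for Chgb and from -1.92 to -1.36 for Gad1, which makes the transmitter GABA. For Ttr it was -1.91 without the term and -1.94 with it, for Dsc2 -2.55 and -2.45, and for Foxl2os -2.62 and -2.40. Of the higher genes, Nptx2 was at 1.47 without the term and 1.46 with it, Serpina3n at 1.28 and 1.41, Vgf at 1.56 and 1.68, Il31ra at 1.19 and 1.10 and Bdnf at 1.75 and 1.42. With the term Alkal2 and Loxl4 were the 2 genes of all those tested that passed, at adjusted p of 0.0865 and 0.00846 in edgeR, and Nptx2 was at 0.154. In the fit with the block, leaving out the pair numbered 2 kept 15 of the 18 higher and 16 of the 36 lower genes. Leaving out the pair numbered 1 kept 18 and 36, and leaving out the pair numbered 3 kept 17 and 35. The fits without the pair numbered 1, 2 and 3 passed 1434, 42 and 197 genes in all. Each rests on 1 residual degree of freedom per gene, so a call kept there is a weak check. The part of pituitary tissue in the lower genes beyond these values was not tested.

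**Figure D4:**
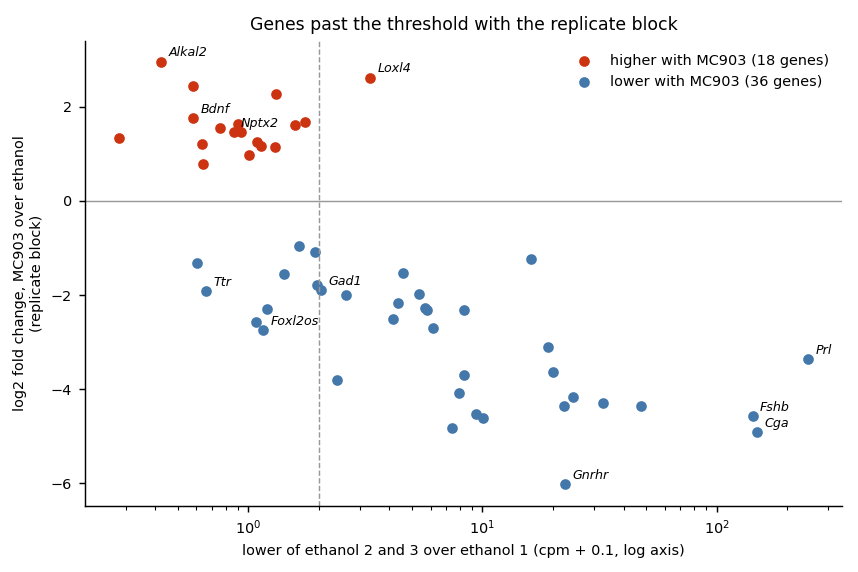
Log2 fold change with the replicate block for the 54 genes that passed, against the lower of ethanol replicates 2 and 3 over ethanol replicate 1, on a log axis after adding 0.1 cpm. Of the 36 lower genes 28 have a ratio of at least 2 before that addition (the dashed line is at 2), while 17 of the 18 higher genes lie to the left.

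In a few lower genes ethanol replicate 1 was about as high as the other ethanol libraries. Ttr, which encodes the thyroid hormone and retinol carrier transthyretin, measured 11.9, 7.79 and 11.6 cpm with ethanol and 1.76, 3.27 and 3.2 cpm with MC903. All 3 ethanol libraries were high, replicate 1 included, and its log2 fold change with the block was -1.92 ± 0.30 with an adjusted p of 0.0299 in edgeR. Dsc2, a desmosomal cadherin, measured 1.93, 2.4 and 2.08 cpm with ethanol and 0.284, 0.497 and 0.291 cpm with MC903, and Foxl2os 2.1, 2.45 and 2.82 against 0.114, 0.414 and 0.624 cpm. Foxl2os overlaps the start of Foxl2 on the other strand, and since the strand setting of the counting is not stated, reads of both cannot be told apart where they overlap. Foxl2 itself stayed at or under 0.25 cpm in all 6 libraries. The pair numbered 1 gave 0.149, 0.148 and 0.0543 times the ethanol level for Ttr, Dsc2 and Foxl2os. Gad1 also had all MC903 libraries below all ethanol libraries, with 3.89, 8.06 and 10.2 cpm with ethanol and 1.25, 2.03 and 2.54 cpm with MC903, but is among the 28 genes that were higher in ethanol replicates 2 and 3. These 4 genes were chosen after their values were seen, and Ttr and Dsc2 lie on chromosome 18.

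The MC903 effect was then set beside that at other days, each with its own control libraries. At day 1 (4 MC903 and 4 ethanol libraries) and at day 2 (3 and 2) no gene passed in edgeR without the block, 0% of 25319 and 24092 tested, and 2034 and 1527 had an unadjusted p below 0.05. With the block none passed at day 1, and 4 passed as higher and 12 as lower at day 2. At day 8 (5 and 5) 41 genes passed, 0.16% of those tested, 32 as higher and 9 as lower, and with the block 34 and 19. All 18 genes that passed as higher at day 5 with the block had log2 fold changes above 0 at day 8, where 11 of them passed, with a median of 1.38 against 0.01 over all genes. At day 2, 10 of the 18 were above 0, with a median of 0.14, and at day 1 it was 4, with a median of -0.29. Of the 36 lower genes, 14 had a log2 fold change above 0 at day 1, with a median of -0.27, and 24 at day 8, with a median of 0.20. At day 2, 34 of them were tested and 9 were above 0, with a median of -0.58. None of them passed at these days without the block. The summed pituitary markers reached 4357 cpm in ethanol and 769.6 cpm in MC903 libraries of day 1, and were at most 125.7 cpm at day 2 and 245 cpm at day 8.

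Nptx2 had log2 fold changes of -0.48 ± 0.33 at day 1, -0.02 ± 0.19 at day 2, 1.47 ± 0.17 at day 5 and 1.40 ± 0.12 at day 8. Il31ra went through -0.41 ± 0.36, -0.04 ± 0.18, 1.19 ± 0.19 and 1.30 ± 0.10 at the same days, and Vgf through -0.75 ± 0.41, 0.07 ± 0.14, 1.56 ± 0.28 and 1.50 ± 0.12. Bdnf was at -0.39 ± 0.30 at day 2, 1.75 ± 0.27 at day 5 and 1.38 ± 0.16 at day 8. Mt1, in contrast, had values of 1.37 ± 0.42 at day 1 and 1.57 ± 0.66 at day 2, above its 0.97 ± 0.18 at day 5, and passed at no day in these fits.

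Whether the effect at day 5 differed from that at another day was tested as an interaction. Against day 2, no gene of 26084 passed in edgeR without the block (0%), 1018 had an unadjusted p below 0.05 and 16 passed in DESeq2. In edgeR 11 passed with the block within each day, 5 of them with the higher effect at day 5. Of the genes named here, Bdnf was among those 5. Its difference was 2.26 ± 0.30 on the log2 scale, with an adjusted p of 0.00174 in edgeR. Without the block it was 2.12 ± 0.43 and did not pass. At day 2 Bdnf was at 27.1 and 55.4 cpm with ethanol and at 25.8 to 40 cpm with MC903. MC903 replicate 3 of day 2 has no ethanol partner, and pairing by number was checked in the day 5 ganglion alone. The differences for Nptx2, Il31ra and Vgf, of 1.47 ± 0.26, 1.22 ± 0.27 and 1.47 ± 0.35 without the block, did not pass, with adjusted p of 0.431, 1 and 1 and, with the block, 0.116, 0.201 and 0.24. Among the 6 with the lower effect at day 5 were Gh, Prl, Dlk1, Igsf1 and Ttr. At day 2 Ttr ran from 0.965 to 10.9 cpm with MC903, against 0.625 to 0.728 cpm with ethanol. Its difference therefore leans on the highest MC903 library of day 2. Against day 8, none of 26927 genes passed in edgeR without the block (0%), 1033 had an unadjusted p below 0.05 and 7 passed in DESeq2. With the block 13 passed, all with the lower effect at day 5, Dlk1, Igsf1, Spint2, Nnat and Chgb among them. For Nptx2, Il31ra and Vgf the differences from day 8 were 0.07 ± 0.21, -0.11 ± 0.20 and 0.06 ± 0.29, and for Loxl4 1.11 ± 0.50, none past the threshold.

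**Figure D5:**
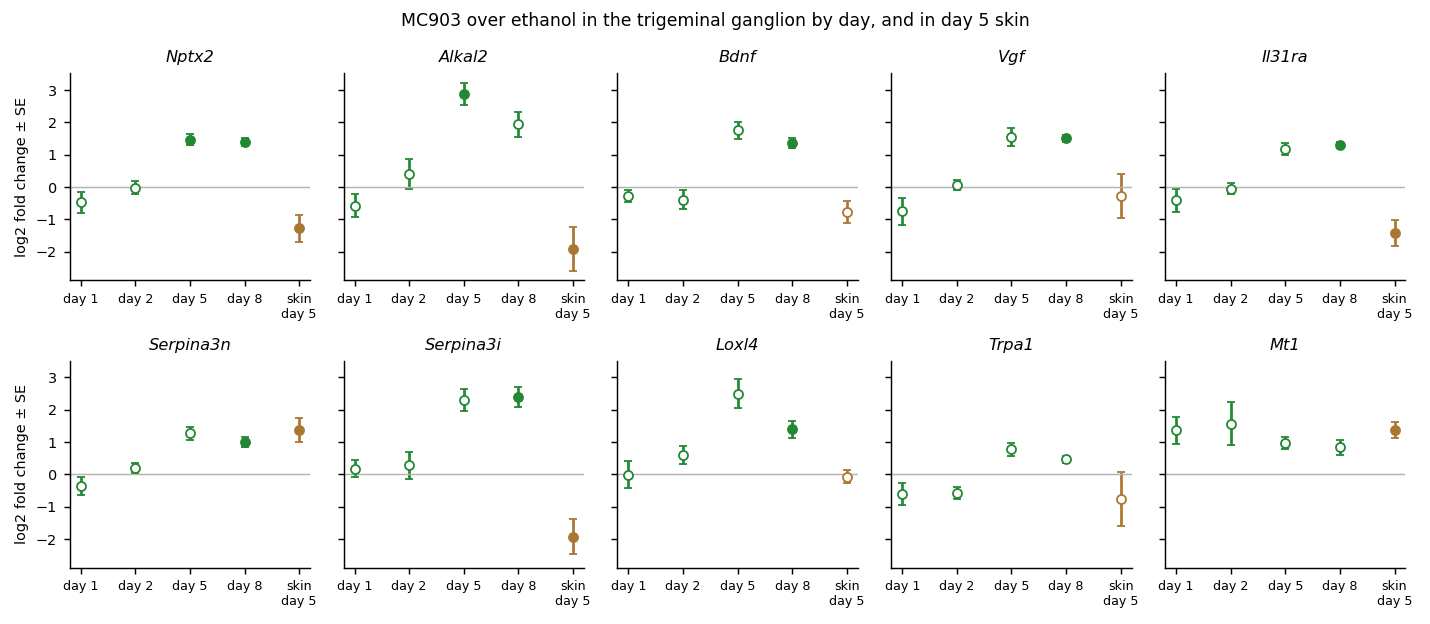
Log2 fold change of MC903 over ethanol ± SE for 10 genes in the trigeminal ganglion at days 1, 2, 5 and 8 (green) and in the treated skin at day 5 (brown), each from its own fit without the block, with filled symbols where the adjusted p was below 0.1. Nptx2, Bdnf, Vgf and Il31ra lie near or below 0 at days 1 and 2 and between 1.19 and 1.75 at days 5 and 8.

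In the treated skin of the same day, 5573 of 24226 genes passed in edgeR (23%) against the 2 in the ganglion. The 18 genes higher in the ganglion did not share 1 direction there: 6 passed as higher, 5 as lower, and 7 of the 18 had values above 0, whether they passed or not. Serpina3n was at 1.37 ± 0.38 on the log2 scale in skin, close to its 1.28 ± 0.20 in the ganglion, and the difference of -0.08 ± 0.47 did not pass. Il31ra was at 31.4 ± 15.6 cpm in ethanol skin and 11.7 ± 2.81 cpm in MC903 skin, and Serpina3i at 8.52 ± 5.42 and 2.25 ± 0.24 cpm, the opposite order of the ganglion. The interaction of tissue and treatment, which passed 1725 of 26828 genes (6.43%), passed for both, at adjusted p of 0.00857 and 0.00388. It also passed for Nptx2, Bdnf, Loxl4, Plin4, Serpina3g and Alkal2. The 5 genes with the smallest p of this interaction, Stfa1, BC100530, Cdhr1, Ptgs2 and Ptprz1, passed in neither fit of the ganglion.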

How the data were processed

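Messenger RNA of 6 trigeminal ganglion libraries was compared. The authors selected poly(A) RNA, mapped the single-end reads to mm10 (Bowtie2, TopHat), used htseq-count to count them per gene, and the deposited values are raw counts for 46078 Ensembl genes, with no normalization. Versions, annotation release and strand setting are not given in the sources used here. The 5 tally lines were left out. The reads on no gene came to between 13.1% and 15.8% of the counts on genes and these tallies. Symbols and positions for 45143 genes come from GENCODE M21 (GRCm38).

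Groups were compared with the quasi-likelihood F test of edgeR 4.0.16 (glmQLFit, glmQLFTest; R 4.3.3), with TMM normalization, on genes that summed to 10 counts or more in the libraries of a fit, with Benjamini-Hochberg adjustment over all genes tested and a threshold of 0.1. Other days, skin and the interactions were fitted in the same way on their own libraries, with a mean for each day, cohort or tissue. SEs come from these fits. The replicate numbers are those in the labels, which name no shared animal, day or batch. Across 16885 genes, deviations from the group means correlated at 0.373, 0.297 and 0.168 in the same-numbered pairs and at -0.329 to 0.203 in the others. The numbers were taken to pair the libraries, although the 0.203, of ethanol replicate 2 with MC903 replicate 3, exceeds the 0.168 of the pair numbered 3. Deviations within a group cancel, so these correlations are not independent.

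Alternatives were RLE size factors, DESeq2 1.42.0, other filters, the replicate block, 1 fit over days 1, 2, 5 and 8, each library left out, and 4 kinds added after the data were seen. The scripts were tested on simulated data. The genes, lists and motifs were chosen with earlier results of these data known. Named were genes past the threshold in either fit (the smallest p-values first, with no overlap or the same direction in all 3 pairs), list members that passed, NP3 genes, neuron markers, Vdr and the 5 leading genes of an interaction. Genes named beside these were chosen after their values were seen. With 3 libraries against 3, the spread between libraries limits the precision, at a common coefficient of variation of 0.284 in edgeR without the block. For scarce genes the counts limit it too. No exact permutation test of 3 against 3 without pairing could go below 0.1.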

Additional observations from a re-analysis of the deposited data

Results flagged for a closer look

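The effect of MC903 differed between the ganglion and the skin at day 5, by the test of the difference itself without the block (edgeR, adjusted p below 0.1), for the following genes named above. The difference, ganglion minus skin on the log2 scale, was 2.75 for Nptx2, 4.82 for Alkal2, 4.24 for Serpina3i, 1.94 for Serpina3g, 2.54 for Bdnf, 2.63 for Il31ra, 2.58 for Loxl4, 2.93 for Plin4, -3.05 for Nts, -4.19 for Dsc2 and -2.96 for Gad1. It was -11.23 for Stfa1, -11.21 for BC100530, -7.84 for Cdhr1, -8.10 for Ptgs2 and -5.11 for Ptprz1, the 5 with the smallest p. Nts was at 0.221 ± 0.21 cpm in ethanol skin and 1.27 ± 0.01 cpm in MC903 skin. With the replicate block it was also past the threshold for Fst at 1.36, Neurod4 at -7.92, Asb4 at -2.3, Cga at -5.18, Dlk1 at -3.45, Spint2 at -2.30 and Vdr at -0.93.

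Against day 2, the effect in the ganglion differed with the replicate block, and not without it, for Bdnf at 2.26, Dlk1 at -5.8, Igsf1 at -3.76, Gh at -5.64, Prl at -5.10 and Ttr at -4.35. The limits of the day 2 libraries given above for Bdnf and Ttr hold here too. Against day 8 it did so for Dlk1 at -5.34, Igsf1 at -4.04, Chgb at -1.05, Spint2 at -2.58 and Nnat at -2.14. Dlk1, Igsf1, Asb4, Neurod4 and Cga, itself among the pituitary markers, were high in the 2 ethanol libraries where those markers were high. Whether pituitary tissue accounts for their differences was not tested.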

How the results depend on the processing

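Without the block, the 2 calls of the day 5 comparison became 30 with no filter on low counts, 0 with filterByExpr, 49 with DESeq2, 54 with the replicate block and 5 in 1 fit over days 1, 2, 5 and 8. Leaving out 1 library gave 0 to 33 calls, 33 of them without ethanol replicate 1 (6 higher), 2 without MC903 replicate 1 and 0 without any of the other 4 (938 genes had an unadjusted p below 0.05 with all libraries). Alternatives chosen after the data were seen gave, with the replicate block, 96 calls in DESeq2, 56 with RLE size factors and 1434, 42 and 197 without the pair numbered 1, 2 and 3. With 1 pair left out the spread rests on 1 residual degree of freedom per gene, shared between genes. The cause of these moves was not tested.

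The 2 list members past the threshold became 9 with no filter, 0 with filterByExpr, 12 with DESeq2, 13 with the replicate block, 4 in the fit over 4 days, 0 to 6 with 1 library left out, and, with the replicate block, 20 in DESeq2, 14 with RLE and 73, 13 and 19 without pairs 1, 2 and 3.

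The interaction with day 2 gave 0 calls, and 33 with no filter, 16 in DESeq2, 11 with the replicate block and 0 to 1 with 1 library left out. That with day 8 gave 0, and 80, 7, 13 and 0 to 5. That with skin gave 1725, 3005 in DESeq2, 2265 with the replicate block and 1081 to 2078 with 1 library left out. No gene reversed a call.

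Depth limits the genes near 1 cpm, such as Alkal2 with ethanol, and 3 libraries a group limit all of them. The replicates, the pituitary signal and the treatment are not balanced against each other.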
